A study of Saccharomyces cerevisiae with 9 samples.

Results

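The 9 genes ARG1, ARG2, ARG3, ARG4, ARG7, ARG8, CPA1, CAR1 and CAR2 encode enzymes that make arginine or break it down in the budding yeast Saccharomyces cerevisiae. They were taken as a list of names and matched by systematic name to the probes of a whole-genome expression array, where each had 1 probe among 6947. On 6 two-colour arrays, RNA of m8, a line of a mutator strain kept for 6700 generations, was hybridised against RNA of the ancestral mutator strain. On 3 control arrays, RNA of an evolved non-mutator strain of the same number of generations was hybridised against its ancestral non-mutator strain. All cultures were grown in the rich medium YPD, from an overnight culture to an OD600 of about 0.3. The labels give neither the mutation behind the mutator phenotype nor any other allele of the 4 strains, and they name 1 evolved line per group, so the values describe these lines. Evolved RNA carried Cy5 and ancestral RNA Cy3 on every array, so a higher ratio is read as more transcript in the evolved strain. The direction comes from these dye labels only, and a dye effect was not balanced by swapped arrays.

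The mutator arrays were made in a first round and a repeat round of 3 hybridisations each, from evolved RNA preparations 1, 2 and 3 (the repeat of 2 was set against ancestral RNA 1). The first and repeat array of each preparation were averaged, which left 3 mutator and 3 non-mutator replicates. For every gene the mutator SD, and the p-value of the main fit, therefore leave out the difference between rounds. Values are log2 ratios of evolved over ancestral strain after centring each array on its median, which lowered mutator values by 0.102 on average, given as mean ± SD (n = 3 replicates) unless stated. Whether replicates were grown as separate cultures is not in the labels, and the p-values rest on a spread between samples that may be technical in origin. Precision is limited by how few arrays there are. Over all probes the SD of log2 ratios was 0.848 to 1.0 on a mutator array and 0.275 to 0.304 on a non-mutator array. A ratio measured on a culture does not separate fewer transcribing cells from less RNA per cell.

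Arginine synthesis starts from glutamate in the mitochondrion, where acetylated intermediates lead to ornithine, and ends in the cytosol, where ornithine takes up a carbamoyl group and is turned into citrulline, argininosuccinate and arginine. Catabolism runs the other way: arginase splits arginine into ornithine and urea, and an aminotransferase passes ornithine on towards proline and glutamate. In yeast both branches are regulated by arginine, through the Arg80, Arg81, Arg82 and Mcm1 proteins, which repress ARG1, ARG3, ARG5,6 and ARG8 and activate CAR1 and CAR2. The activator Gcn4 raises most synthesis genes when amino acids are short, and Ume6 represses CAR1 and CAR2.

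In the evolved mutator line the 7 synthesis genes were lower than in the ancestor and the 2 catabolism genes were higher. The decreases were uneven: 5 synthesis genes (ARG1, ARG3, ARG4, ARG7 and CPA1) were 2.71-fold to 10.1-fold lower, while ARG2 and ARG8 were 1.17-fold and 1.22-fold lower. CAR2 was 3.46-fold and CAR1 2.06-fold higher. With arrays brought to equal spread these changes were smaller but all except those of ARG2 and ARG8 passed, with ARG1 at a log2 ratio of -2.17 in place of -3.33 and CAR2 at 1.18 in place of 1.79. In the non-mutator ARG1 was lower, CAR2 was slightly higher, and the other 7 genes did not pass the test. Calls rest on a linear model fitted in limma over 6866 probes, with an adjusted p under 0.05 (Benjamini-Hochberg over all probes). So many probes passed in the mutator that a call alone says little: 37.8% of all probes were lower and 37.3% higher. Decreases of at least 2-fold, which 5 of the 9 genes showed, were called for 10.9% of probes, and increases of that size, which 2 of the 9 showed, for 7.17%.

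**Figure D1:**
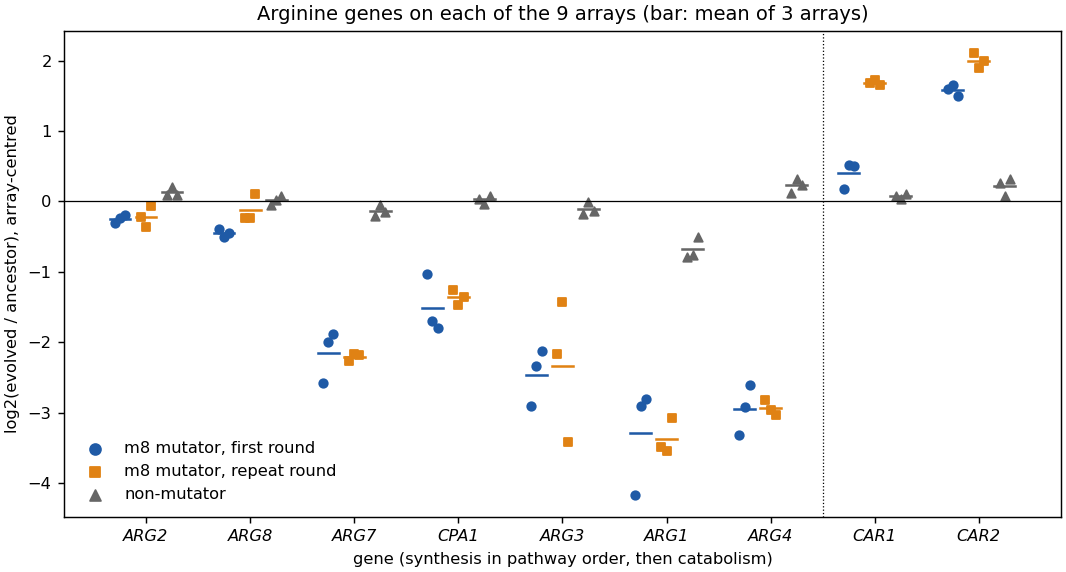
Log2 ratios of evolved over ancestral strain (y axis, centred on each array's median) for the 9 arginine genes (x axis) on first-round mutator, repeat mutator and non-mutator arrays; points are arrays and bars are means of 3 arrays. ARG7, CPA1, ARG3, ARG1 and ARG4 lie below -1 on all 6 mutator arrays, and CAR1 is near 1.7 in the repeat round against 0.41 in the first.

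The opening step of synthesis hardly moved. ARG2 (YJL071W, chromosome X) encodes acetylglutamate synthase, which starts the pathway by acetylating glutamate. Its log2 ratio was -0.30, -0.23 and -0.20 on first-round arrays 1, 2 and 3 and -0.22, -0.37 and -0.06 on their repeats, against 0.20, 0.10 and 0.10 on non-mutator arrays 3, 4 and 2. All mutator values lay below 0 and all non-mutator values above it, without overlap, but none was far from 0. The mutator mean of -0.23 ± 0.09 passed the test (adjusted p = 0.0065), whereas the non-mutator mean of 0.13 ± 0.06 did not (adjusted p = 0.13). When arrays were brought to equal spread (one median absolute deviation for all), the mutator value was -0.15 and no longer passed (adjusted p = 0.104).

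ARG8 (YOL140W, chromosome XV) encodes acetylornithine aminotransferase, a later mitochondrial step. It stood at -0.39, -0.51 and -0.44 on the first-round arrays and at -0.24, -0.24 and 0.11 on the repeats, with non-mutator arrays 3, 4 and 2 at 0.02, 0.07 and -0.05. The repeat of number 3 was above every non-mutator array, so ARG8 was the single gene of the 9 in which the groups overlapped. The mutator mean was -0.28 ± 0.11 (adjusted p = 0.0035), and the non-mutator mean 0.01 ± 0.06 (adjusted p = 0.901). On the repeat arrays alone the value was -0.12 and did not pass (adjusted p = 0.234), nor did it under equal spread (-0.18, adjusted p = 0.0798). The small decreases of ARG2 and ARG8 therefore depended on how arrays were scaled or chosen.

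ARG7 (YMR062C, chromosome XIII, also known as ECM40) encodes the ornithine acetyltransferase that releases ornithine and returns the acetyl group to glutamate. It was at -2.58, -1.99 and -1.88 in the first round, at -2.27, -2.16 and -2.19 in the repeat, and at -0.05, -0.15 and -0.21 on non-mutator arrays 3, 4 and 2. The groups were far apart and the repeat arrays nearly identical. ARG7 fell to -2.18 ± 0.22, which is 4.53-fold lower (adjusted p = 2.87e-06), and its non-mutator value of -0.13 ± 0.08 did not pass (adjusted p = 0.319).

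Outside the 9, further genes of the mitochondrial branch fell in the mutator too. These were ARG5,6 (YER069W), whose product is cleaved into acetylglutamate kinase and acetylglutamyl-phosphate reductase, and the mitochondrial ornithine exporter gene ORT1 (YOR130C), which is named after its values were seen. ARG5,6 stood at -2.01 ± 0.09 (adjusted p = 7.81e-07) and ORT1 at -0.92 ± 0.06 (adjusted p = 7.15e-06). Their non-mutator values were -0.16 ± 0.06 and -0.23 ± 0.05, of which that of ORT1 passed (adjusted p = 0.0182). ARG5,6 lies between ARG2 and ARG8 in the pathway, so a strong decrease stood between both small ones.

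CPA1 (YOR303W, chromosome XV) encodes the small subunit of the carbamoyl phosphate synthetase that serves arginine. CPA1 was at -1.04, -1.70 and -1.80 on the first-round arrays, at -1.26, -1.47 and -1.36 on the repeats, and at -0.03, 0.08 and 0.04 on non-mutator arrays 3, 4 and 2. Every mutator array was below every non-mutator array, and first-round array 1 was the highest of the 6. The mean of -1.44 ± 0.25 is 2.71-fold lower (adjusted p = 2.08e-05), and the non-mutator mean was 0.03 ± 0.06 (adjusted p = 0.884). The CPA1 transcript carries a short upstream reading frame, YOR302W, whose peptide stalls ribosomes when arginine is plentiful. YOR302W had a probe of its own, described here after its values were seen. It stood at -1.99, -2.07 and -1.90 on the first-round arrays and -1.83, -2.22 and -1.74 on the repeats, a mean of -1.96 ± 0.17 (adjusted p = 2.02e-06), and at -0.05 ± 0.05 in the non-mutator. Probes against the leader and the coding part of CPA1 thus both showed a decrease in the mutator and none that passed in the non-mutator.

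ARG3 (YJL088W, chromosome X) encodes ornithine carbamoyltransferase, which joins ornithine and carbamoyl phosphate to citrulline. Its mutator values were -2.91, -2.34 and -2.13 on the first-round arrays and -2.17, -1.43 and -3.41 on the repeats, and its non-mutator values -0.01, -0.14 and -0.17 on arrays 3, 4 and 2. ARG3 had the widest spread within a round, with an SD over the 3 repeat arrays of 1.0, yet its highest mutator array was far below its lowest non-mutator array. It fell to -2.40 ± 0.46, which is 5.27-fold lower (adjusted p = 2.35e-05), and the non-mutator value of -0.11 ± 0.09 did not pass (adjusted p = 0.722).

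ARG1 (YOL058W, chromosome XV) encodes argininosuccinate synthetase, and it had the lowest mean of the 9 in both lines. On the first-round mutator arrays it stood at -4.17, -2.91 and -2.81, and on the repeats at -3.49, -3.54 and -3.08. On non-mutator arrays 3, 4 and 2 it was at -0.76, -0.51 and -0.78. All 9 arrays were below 0, and the mutator and non-mutator arrays did not overlap. The mutator mean of -3.33 ± 0.45 is 10.1-fold lower (adjusted p = 6.55e-06) and ranked 40 from the bottom of 6866 probes. In the non-mutator ARG1 fell to -0.68 ± 0.15, 1.61-fold lower (adjusted p = 0.0313), rank 104 from the bottom. There 11.1% of probes were called lower and 10.2% higher. The non-mutator call of ARG1 was lost without any one of the non-mutator arrays (adjusted p = 0.13, 0.161 and 0.105 without array 2, 3 and 4) and also where the spread of mutator arrays was estimated on single arrays or on the first round alone, and with the round as a block.

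ARG4 (YHR018C, chromosome VIII) encodes argininosuccinate lyase, the enzyme that releases arginine. Its values were -3.32, -2.93 and -2.61 in the first mutator round, -2.83, -2.96 and -3.03 in the repeat, and 0.32, 0.24 and 0.13 on non-mutator arrays 3, 4 and 2. ARG4 thus lay below 0 on every mutator array and above 0 on every non-mutator array. It fell to -2.95 ± 0.13, 7.70-fold lower (adjusted p = 5.74e-07), while the non-mutator mean of 0.23 ± 0.10 missed the threshold (adjusted p = 0.0538). The non-mutator value passed in 6 of 17 alternative settings.

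Arginine breakdown moved the other way in the mutator. CAR2 (YLR438W, chromosome XII) encodes ornithine aminotransferase, the catabolic step after arginase. It was at 1.60, 1.65 and 1.49 on the first-round arrays, at 2.10, 1.90 and 1.99 on the repeats, and at 0.08, 0.32 and 0.26 on non-mutator arrays 3, 4 and 2. The first-round mean was 1.58 and the repeat mean 2.00, and both rounds were above the non-mutator. CAR2 rose to 1.79 ± 0.06 (adjusted p = 1.58e-06), rank 69 from the top of 6866 probes. In the non-mutator it rose by 0.22 ± 0.12 (adjusted p = 0.0448), a call that was lost in 10 of 17 alternative settings, among them each in which a non-mutator array was left out.

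CAR1 (YPL111W, chromosome XVI) encodes arginase. Its log2 ratio was 0.18, 0.52 and 0.51 on the first-round arrays and 1.68, 1.72 and 1.66 on the repeats, with 0.03, 0.11 and 0.08 on non-mutator arrays 3, 4 and 2. All mutator arrays lay above the non-mutator arrays, but the rounds formed separate clusters. The mean of both rounds was 1.05 ± 0.10 (adjusted p = 7.29e-06), and the SD leaves out the difference between rounds because each replicate averages an array of both. On the first-round arrays alone CAR1 was 0.41 (adjusted p = 0.0035) and on the repeat arrays alone 1.69 (adjusted p = 2.84e-06), so the increase was called in either round and was larger in the repeat. With the 6 arrays as 6 replicates, which keeps the difference between rounds in the error, the standard error rose from 0.0518 to 0.217 (adjusted p = 0.0018). The non-mutator value of 0.07 ± 0.04 did not pass (adjusted p = 0.372).

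**Figure D2:**
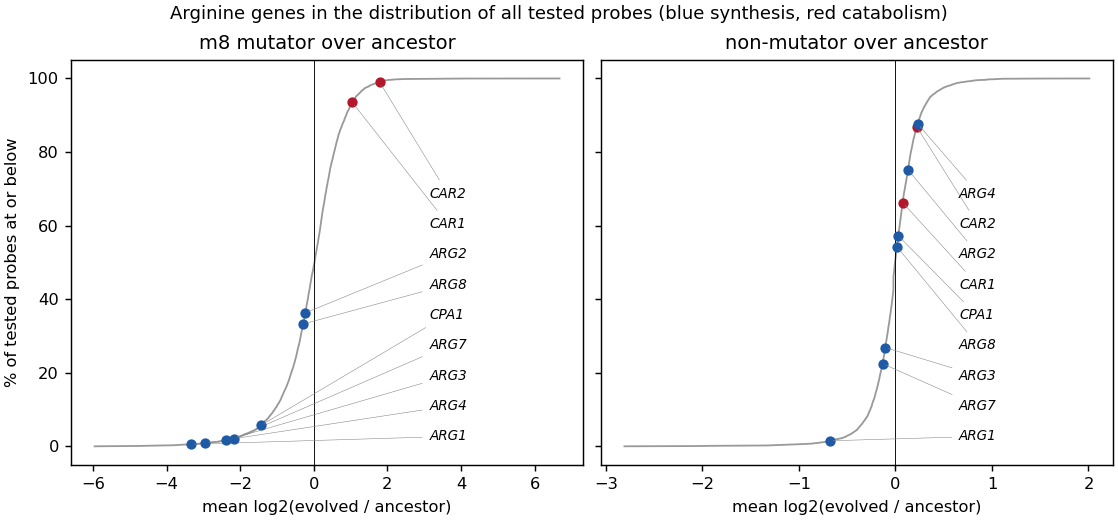
Share of tested probes at or below a given mean log2 ratio (y axis, percent) against that ratio (x axis, mean of 3 replicates) for the mutator (left) and the non-mutator (right), with the 9 arginine genes as points; the x axes differ in range. In the mutator ARG1, ARG4, ARG3 and ARG7 lie at the lower end and CAR2 at the upper end, while in the non-mutator ARG1 alone lies near an end.

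The order of mutator values, from the lowest, was ARG1, ARG4, ARG3, ARG7, CPA1, ARG8, ARG2, CAR1 and CAR2. Several neighbours in this order had overlapping ranges of single arrays, among them ARG1 (-4.17 to -2.81) and ARG4 (-3.32 to -2.61). The range of ARG3 (-3.41 to -1.43) overlapped those of ARG1, ARG4, ARG7 (-2.58 to -1.88) and CPA1 (-1.80 to -1.04). The ranges of ARG8 (-0.51 to 0.11) and ARG2 (-0.37 to -0.06) overlapped as well. In these pairs the order of the genes switched between mutator arrays. The ranges of CAR1 (0.18 to 1.72) and CAR2 (1.49 to 2.10) also overlapped, but CAR2 was above CAR1 on every mutator array. CPA1 lay above ARG7 and below ARG8 without overlap with either. These are differences between changes, since ratios within an array give no level of one probe against another. In the non-mutator, ARG1 (-0.78 to -0.51) was clear of the other 8, whose values ran from -0.21 to 0.32.

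**Figure D3:**
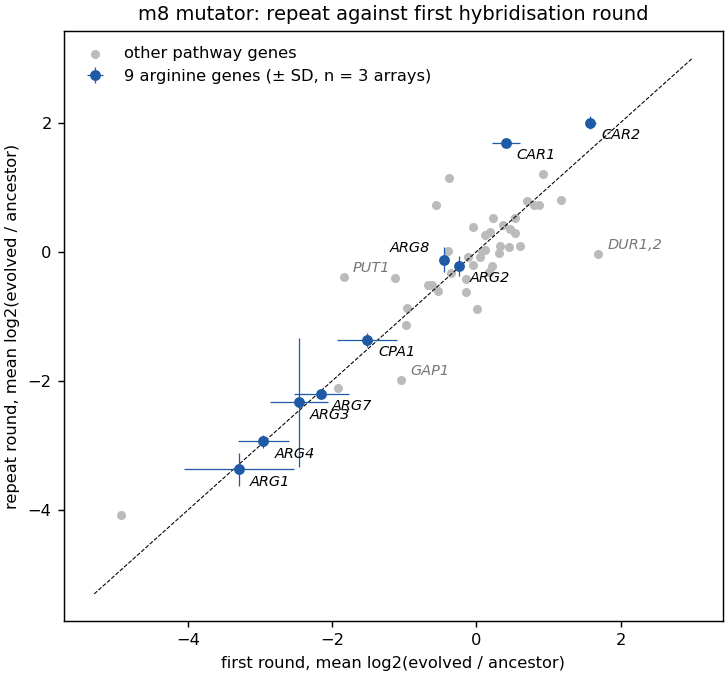
Mean log2 ratio on the 3 repeat mutator arrays (y axis) against that on the 3 first-round arrays (x axis) for the 9 arginine genes, with SD bars (n = 3 arrays), and for other genes of the pathway lists in grey; the dashed line marks equal values. The synthesis genes other than ARG8 lie along the line, and ARG8 and CAR2 lie slightly above it. CAR1 lies further above it (1.69 against 0.41) and DUR1,2 below it (-0.04 against 1.69).

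The hybridisation rounds were compared as differences, repeat minus first, over the 3 RNA numbers (limma, 6520 probes). CAR1 was higher in the repeat by 1.28 ± 0.13 (standard error, adjusted p = 0.0439), and 0.767% of probes were called higher and 0.521% lower. The other 8 genes did not pass. The call of CAR1 was lost when any RNA number was left out, which leaves 2 differences, with values of 1.17 to 1.35 (adjusted p = 0.114, 0.289 and 0.178 without number 1, 2 and 3), and when the lowest ratios were kept (1.29, adjusted p = 0.086). For ARG1, ARG3, ARG4 and ARG7 the difference between rounds was -0.08, 0.13, 0.01 and -0.05, with standard errors of 0.29, 0.49, 0.21 and 0.17, small against the changes themselves. For CPA1 and ARG2 it was 0.15 and 0.03 (standard errors 0.17 and 0.13). ARG8 and CAR2 differed by 0.33 and 0.42 (standard errors 0.14 and 0.13, adjusted p = 0.309 and 0.218). For ARG8 the difference between rounds was larger than its mutator change of -0.28. The urea amidolyase gene DUR1,2, whose product degrades the urea that arginase releases, moved opposite to CAR1 and is named here after its values were seen. It stood at 1.75, 1.51 and 1.81 on the first-round arrays and at -0.12, -0.01 and 0.00 on the repeats, a difference of -1.73 ± 0.13 (standard error, adjusted p = 0.0439). By round means, CAR1 was higher in the repeat and DUR1,2 in the first round. What differed between the rounds is not given in the labels, and its part in these values was not tested.

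The last comparison set the change in the mutator against the change in the non-mutator, which served as the control. All 9 differences passed: 7 were lower in the mutator and 2 higher, where 30.9% and 33.0% of all probes were called. ARG4 differed most, by -3.17 (95% confidence interval -3.40 to -2.95, adjusted p = 3.38e-06). ARG1 differed by -2.65 (-3.20 to -2.10, adjusted p = 0.000121). ARG3, ARG7 and CPA1 differed by -2.29, -2.04 and -1.47 (adjusted p = 0.000211, 2.6e-05 and 0.000142). The differences of ARG2 (-0.36, adjusted p = 0.0052) and ARG8 (-0.30, adjusted p = 0.0151) were small, and that of ARG8 was lost in 6 of 17 alternatives. CAR2 differed by 1.57 (1.37 to 1.77, adjusted p = 1.85e-05) and CAR1 by 0.97 (0.79 to 1.15, adjusted p = 7.13e-05). With all arrays brought to equal spread, the difference of ARG1 was -0.58 and close to the threshold (adjusted p = 0.0483), and that of CAR2 was 0.65 (adjusted p = 0.013). In that setting ARG4 differed by -2.46, ARG3 by -1.33, ARG7 by -1.10, CPA1 by -1.02, CAR1 by 0.52 and ARG2 by -0.45, all past the threshold, and ARG8 by -0.21 (adjusted p = 0.129). For CAR1 the difference was 0.33 with first-round arrays alone and did not pass with the 6 mutator arrays as replicates (adjusted p = 0.0549). On single arrays, 6 of the 9 genes had all mutator arrays below all non-mutator arrays and 2 had them above. Of the 6173 probes with a value on all arrays, 28.3% were arranged the first way and 28.3% the second.

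Genes encoding regulators changed in both directions. Of 14 genes encoding regulators of arginine and nitrogen metabolism, 6 rose, 3 fell and 5 did not pass in the mutator. Over all probes tested, 37.3% were called higher and 37.8% lower. The median of the 14 was 0.09, beside 0.02 over all probes tested. ARG80, ARG81 and ARG82, the genes of the arginine-specific regulators, stood at 0.26 ± 0.08, 0.19 ± 0.06 and 0.17 ± 0.08 (adjusted p = 0.0087, 0.00817 and 0.0194). ARG80 had a first-round mean of 0.45 and a repeat mean of 0.08, and ARG82 of -0.04 and 0.38. In the non-mutator ARG80, ARG81 and ARG82 stood at 0.03 ± 0.13, -0.21 ± 0.05 and 0.17 ± 0.05, of which that of ARG81 passed (adjusted p = 0.0256). The difference between mutator and non-mutator passed for ARG81 (0.40, adjusted p = 0.00192). It did not pass for ARG80 or ARG82 (adjusted p = 0.0591 and 0.995), and ARG82 had nearly the same mean in both lines. MCM1 was at -0.06 ± 0.14 and did not pass (adjusted p = 0.369). GCN4 fell to -0.34 ± 0.08 (adjusted p = 0.000629), and all its mutator arrays (-0.45 to -0.21) were below its non-mutator arrays (-0.06 to -0.01). UME6 rose to 0.80 ± 0.09 (adjusted p = 4.02e-05), with the non-mutator at -0.02 ± 0.10. None of the 14 was called with a change of at least 2-fold, a size called lower for 10.9% and higher for 7.17% of all probes.

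**Figure D4:**
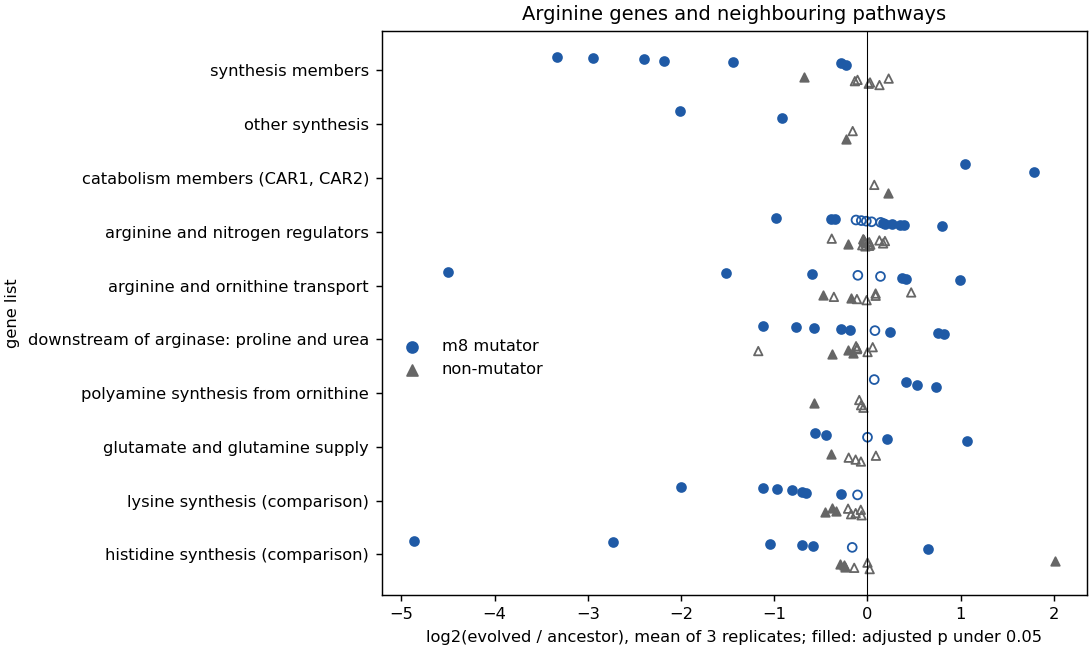
Mean log2 ratio (x axis, 3 replicates) of each gene of the arginine group and of the lists around it (y axis), for the mutator (circles) and the non-mutator (triangles); filled symbols passed an adjusted p of 0.05. Synthesis genes lie left of 0 and CAR1 and CAR2 right of it in the mutator, while regulators and the genes of proline and urea metabolism fall on both sides.

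Transport genes changed in both directions in the mutator, with 3 of 8 higher and 3 lower (median 0.02). This was close to the shares over all probes, of which 37.3% were called higher and 37.8% lower (median 0.02). YPQ3 (RTC2), which encodes a vacuolar membrane protein for basic amino acids, fell to -4.50 ± 0.35 (adjusted p = 1.23e-06), 22.7-fold lower, while the non-mutator was at 0.47 ± 0.16. The general amino acid permease gene GAP1 fell to -1.52 ± 0.10 (adjusted p = 1.82e-06), with a first-round mean of -1.04 and a repeat mean of -1.99. The arginine permease gene CAN1, named after its values were seen, rose to 0.99 ± 0.17 (adjusted p = 2.75e-05). ALP1, another basic amino acid permease gene named on the same terms, stood at 0.14 ± 1.10 and did not pass (adjusted p = 0.743). It was at 3.37 on a single repeat array, at -1.08 to -0.27 on the other mutator arrays with a value, and missing on another repeat array. Its mean is therefore not a measured lack of change.

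Of 9 genes of proline and urea metabolism, uptake and regulation included, 3 rose and 5 fell (median -0.19), beside 37.3% and 37.8% of all probes. The proline oxidase gene PUT1 fell to -1.12 ± 0.16 (adjusted p = 1.76e-05), with a first-round mean of -1.84 and a repeat mean of -0.39. DUR1,2 averaged 0.82 ± 0.08 over both rounds (adjusted p = 3.8e-05), with a first-round mean of 1.69 and a repeat mean of -0.04. Its increase over the ancestor was thus seen in the first round only. For PUT1 and DUR1,2, as for every gene, the SD leaves out the difference between rounds. In the non-mutator DUR1,2 fell to -0.38 ± 0.12 (adjusted p = 0.00904). Of 4 genes of polyamine synthesis, which draws on ornithine, 3 rose and 0 fell (median 0.48). Of 5 genes that supply or use glutamate and glutamine, 2 rose and 2 fell, and the glutamate dehydrogenase gene GDH1, whose enzyme makes the glutamate from which arginine synthesis starts, rose to 1.06 ± 0.06 (adjusted p = 3.25e-06).

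Other amino acid pathways gave a scale for these changes. Over all probes in the mutator, 37.3% were called higher and 37.8% lower, with 10.9% called at least 2-fold lower. Of 8 genes of lysine synthesis, the regulator gene LYS14 included, 0 rose and 7 fell (median -0.75). The largest decreases were those of LYS1 at -2.0 ± 0.28 and LYS2 at -1.12 ± 0.14. LYS14, named after its values were seen, was the gene that did not pass (-0.11 ± 0.17, adjusted p = 0.228). Of 7 histidine synthesis genes 1 rose and 5 fell (median -0.70), with HIS3 at -4.87 ± 0.06, HIS4 at -2.72 ± 0.26 and HIS5 at -1.05 ± 0.14. HIS3 moved the other way in the non-mutator, to 2.01 ± 0.05 (adjusted p = 2.51e-05). The median of the 7 arginine synthesis genes among the 9 was -2.18 in the mutator and 0.01 in the non-mutator. These medians describe lists of different size and make-up, and the difference between them was not tested. Of the lysine genes 3 of 8 fell in the non-mutator, and of the 7 histidine genes 3 fell and 1 rose, where 11.1% of all probes were called lower and 10.2% higher.

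The 9 genes lie on 6 chromosomes (ARG2 and ARG3 both on X, and ARG1, ARG8 and CPA1 on XV), and the genes next to them in the reference order were looked up. Beside CPA1, its leader frame YOR302W had fallen too, while ISW2 on the other side stood at 0.44. The genes beside ARG4, YSC83 and DED81, stood at -0.22 and 0.31 in the mutator, and those beside ARG3, SIP4 and TRL1, at 0.66 and 1.13. Beside ARG7, RNA14 and RIM9 were at 0.84 and 0.37. Beside ARG1, GPD2 had fallen as well, to -0.95, and YOL057W was at 0.03. The genes beside ARG2, PSF2 and YJL070C, were at -0.02 and -0.87, and those beside ARG8, PPM2 and CDC33, at 1.29 and 0.54. Beside CAR2, DIF1 and LSM3 were at 0.43 and 0.50, and beside CAR1, PEX25 and GDE1 at 0.36 and -0.85. Apart from YOR302W, no gene beside the 5 synthesis genes that fell at least 2-fold was itself 2-fold lower, though GPD2 was close. Decreases of that size were called for 10.9% of all probes, so their absence from so few neighbours says little.

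Likeness over the 9 arrays was measured as the root mean square difference of log2 ratios, against 5469 genes with a value on all arrays, for the 7 genes changed at least 2-fold. The nearest genes to ARG4 were HXT4 (0.20), HSP31 (0.23) and ARO5 (0.25), and to CAR2 DHR2 (0.11), REI1 (0.18) and RCL1 (0.20). CPA1 was nearest to SRL1 (0.11), YNR014W (0.16) and FUN19 (0.16), and ARG7 to IRC7 (0.18), CTS1 (0.20) and VHS1 (0.20). ARG3 had another arginine gene, ARG7 (0.51), among its nearest, after FRE7 (0.47) and IRC7 (0.50). The nearest genes to ARG1 were ADH5 (0.47), ALD3 (0.50) and PHM8 (0.51), and CAR1 was nearest to MDV1 (0.29), HMS1 (0.31) and ERG5 (0.32). These distances mostly follow the size of the change in the mutator and are given as a description.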

How the data were processed

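The values deposited by the authors are linear ratios of both channels of each 2-colour array, evolved strain (Cy5) over ancestor (Cy3) per the labels; background correction, normalization and software are not given in the sources used. RNA had been isolated with the Qiagen RNeasy Midi Kit, per the labels' protocols. The lowest ratio, 0.01 on every array, was treated as a floor and set to missing; no arginine gene had such a value. Log2 ratios were centred on each array's median (a mean shift of 0.102 on mutator arrays) and the 2 arrays of an RNA number averaged. Non-mutator replicates carry the numbers of their titles, which differ from those in their descriptions.

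Probes measured in 2 or more replicates per group were fitted with limma 3.58.1 (lmFit and eBayes, R 4.3.3), estimating 1 mean for each group with 4 residual degrees of freedom, two-sided. The fit was first run on simulated data in which both groups had the same spread for a probe. That simulation does not show how the fit behaves where the spread differs between groups. Figures used matplotlib 3.10.9 and Python 3.11.15. Of the probes, 5840 matched the R64 RefSeq gene table, used for names and gene order only since the array's build is not named. Genes outside the 9 are named where called with at least 2-fold change in the mutator (up to 4 a list), with GCN4, ARG80, ARG81, ARG82, MCM1 and UME6 in any case; other genes are marked in the text as chosen after their values were seen, or are gene-order neighbours or nearest genes by likeness. The members and lists were chosen with earlier results of these data known. Alternatives covered centring, scaling, floor, rounds, replicates, filters, thresholds and eBayes settings. No sequences were used here, and 1 gene of the lists is not reported here.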

Additional observations from a re-analysis of the deposited data

Results flagged for a closer look

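The change between evolved strain and ancestor differed between the mutator and the non-mutator for all 9 genes by the test of the difference itself (limma). Lower in the mutator were ARG4 by -3.17, ARG1 by -2.65, ARG3 by -2.29, ARG7 by -2.04, CPA1 by -1.47, ARG2 by -0.361 and ARG8 by -0.299, and higher were CAR2 by 1.57 and CAR1 by 0.972, all on the log2 scale. Log2 ratios spread more widely on mutator arrays than on non-mutator arrays over all probes, and with all arrays at equal spread the differences ranged from -2.46 (ARG4) to 0.65 (CAR2), with that of ARG1 at -0.58. No gene had a single mutator array standing apart from the other 5 by Dixon's criterion, although CAR1 fell into separate clusters by round.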

How the results depend on the processing

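In the mutator, calls of ARG1, ARG3, ARG4, ARG7, CPA1, CAR1 and CAR2 passed in all 17 settings run for single genes; ARG2 lost its call in 1 and ARG8 in 2. Equal spread moved ARG1 to -2.17, ARG3 to -1.59, ARG4 to -1.93, ARG7 to -1.43, CPA1 to -0.94, CAR1 to 0.70 and CAR2 to 1.18 in the mutator, and ARG1 to -1.60 in the non-mutator, so that the difference between lines shrank from -2.65 to -0.58 for ARG1, -2.04 to -1.10 for ARG7 and 1.57 to 0.65 for CAR2; first-round arrays alone moved CAR1 to 0.41. Non-mutator counts were fragile. The 1 higher gene became 2 without centring, with each group fitted alone or with complete probes only, 3 with equal spread, and 0 with the floor kept, single arrays as replicates, the round as a block, either round alone, adjusted p under 0.01 or a 2-fold limit; leaving out replicates gave 0 to 2. The 1 lower gene became 2 with equal spread, and 0 with single arrays as replicates, the round as a block, first-round arrays, adjusted p under 0.01 or a 2-fold limit; leaving out replicates gave 0 to 1. Over all probes, non-mutator calls went from 1457 to 297 with single arrays as replicates, 293 with the round as a block, 868 and 741 with first-round or repeat arrays alone, 2481 with each group alone, 3455 with equal spread, 504 at adjusted p under 0.01, 49 at 2-fold, and 603, 347 and 351 without array 2, 3 and 4. A 2-fold limit left 1241 of 5154 mutator calls and 1328 of 4390 calls of the difference, and the 84 calls between rounds became 0 in each limma setting in which CAR1 lost its call, where 581 to 1449 probes had an unadjusted p under 0.05. The 2 genes higher in the mutator than in the non-mutator became 1 with single arrays as replicates or a 2-fold limit. The 1 gene higher in the repeat round became 0 with the floor kept, adjusted p under 0.01, or without any replicate. Signs turned in values that did not pass: ARG8 in the non-mutator was -0.0151 without array 4 (leaving out replicates gave -0.0151 to 0.0454), and the repeat minus first difference under equal spread was -0.0609 for ARG3 and -0.111 for ARG4. Leaving out an RNA number, that difference ranged from -0.46 to 0.20 for ARG1, -0.0272 to 0.109 for ARG2, -0.27 to 0.83 for ARG3, -0.23 to 0.23 for ARG4 and -0.241 to 0.0729 for ARG7. Groups share the replicate numbers 2 and 3. Deviations of same-numbered samples correlated at -0.036 and 0.017, so no shared deviation was seen. This cannot tell whether same-numbered samples were handled together. With a replicate block the difference gave 2 genes higher and 5 lower (ARG2 and ARG8 not called), and 3482 probes passed in place of 4390. The causes were not tested.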
